A study of Mus musculus with 45 samples.

Results

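The D and E cyclins with their kinases are 8 genes: Ccnd1, Ccnd2, Ccnd3, Ccne1, Ccne2, Cdk2, Cdk4 and Cdk6. They were taken by symbol from the 30317 gene symbols of the expression table and followed through all 45 libraries. The rule for taking them used no measured value, but the set was chosen with earlier results of these data known. All 8 passed the filter on low values (at least 1 TPM, a transcript per 1000000, in at least 3 libraries), as did 15614 of the 30317 symbols. RNA had been measured as polyA transcripts in follicular B cells, the recirculating B cells of the spleen. All cells came from B6.Blimp1GFP/+ mice, which carry a GFP reporter in 1 allele of Blimp1, a regulator needed for antibody-secreting cells. The B cells grew on a layer of the mouse stromal line OP9 or of OP9-DL1, its derivative that presents Delta-like 1 to Notch receptors. They are named OP9 cells and DL1 cells after that layer. On each stroma 1 group received medium alone for 68 h, and 6 groups received lipopolysaccharide (LPS, which bacteria shed and TLR4 senses) or antibody fragments that crosslink the B cell receptor (anti-IgM F(ab')2) at 10 µg/mL for 20, 44 or 68 h. A further group held the Blimp1+ cells of LPS cultures on OP9-DL1, isolated by sorting, for which the labels give no time. That makes 15 groups of 3 libraries, with 21 OP9 and 24 DL1 libraries.

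D cyclins are the cyclins whose genes respond to signals from outside the cell. They bind Cdk4 or Cdk6, and the complexes phosphorylate the retinoblastoma protein and its relatives, which hold back the E2F transcription factors. E cyclins, which are themselves E2F targets, then bind Cdk2 and take the cell into DNA replication. In B cells cyclin D2 is known as the D cyclin induced by receptor signalling, and cyclin D3 as the D cyclin of dividing B cell precursors and germinal centre cells, while cyclin D1 is prominent in stromal and epithelial cells. CDK inhibitors of the Cip/Kip group (Cdkn1a, Cdkn1b) and the Ink4 group (Cdkn2a to Cdkn2d) bind these complexes or their kinases.

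In the RefSeq annotation of build GRCm38.p6, Cdk4 lies on chromosome 10 (127063535 to 127067288) and Cdk2 on the same chromosome (128697938 to 128705051). Cdk6 spans 190005 bases of chromosome 5 (3341004 to 3531008), against 3754 bases for Cdk4. Ccnd1 lies on chromosome 7 (144929931 to 144939831), as does Ccne1 (38097984 to 38107490). Ccnd2 lies on chromosome 6 (127125162 to 127152188), Ccnd3 on chromosome 17 (47505051 to 47599689) and Ccne2 on chromosome 4 (11190433 to 11204779). RefSeq promoter windows were at hand for 5 of the 8 genes (Ccnd3, Ccne1, Cdk2, Cdk4 and Cdk6), 6 windows in all since Ccnd3 had windows for 2 start sites. The Cdk6 window lies inside the span of Cdk6 given above, which begins at 3341004. It therefore precedes an inner start site and not the 5′ end of that span. The 250 bases before each start were searched on both strands for the E-box CACGTG, a motif of Myc and related factors, for the E2F motif in 4 spellings (TTTCCCGC, TTTCGCGC, TTTGCCGC, TTTGGCGC), for the RBPJ motif GTGGGAA of the Notch pathway and for the FOXO motif GTAAACA. The windows of the 3 kinases are shown because their levels and patterns are set side by side below. Each runs 5′ to 3′ on the gene's strand and ends at the base before the start site, with motif matches in capitals (E-boxes in Cdk4 and Cdk6, the E2F motif in Cdk2):
Cdk4, chr10:127063285-127063534, plus strand: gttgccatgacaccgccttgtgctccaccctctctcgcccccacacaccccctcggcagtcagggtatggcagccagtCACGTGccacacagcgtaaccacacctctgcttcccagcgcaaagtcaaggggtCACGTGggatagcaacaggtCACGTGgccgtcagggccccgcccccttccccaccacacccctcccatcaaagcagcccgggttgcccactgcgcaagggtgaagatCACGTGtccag
Cdk6, chr5:3343643-3343892, plus strand: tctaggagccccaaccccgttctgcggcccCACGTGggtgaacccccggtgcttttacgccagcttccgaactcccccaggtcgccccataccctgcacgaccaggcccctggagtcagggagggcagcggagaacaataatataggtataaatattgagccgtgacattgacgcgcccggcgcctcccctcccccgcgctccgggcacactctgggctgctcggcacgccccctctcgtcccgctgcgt
Cdk2, chr10:128705052-128705301, minus strand: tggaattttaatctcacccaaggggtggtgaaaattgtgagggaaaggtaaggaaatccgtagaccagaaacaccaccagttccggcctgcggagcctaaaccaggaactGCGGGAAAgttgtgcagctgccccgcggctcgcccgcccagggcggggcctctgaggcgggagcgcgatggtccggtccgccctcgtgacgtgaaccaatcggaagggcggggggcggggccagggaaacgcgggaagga

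The Cdk4 window held 4 E-boxes, which start 172, 118, 98 and 11 bases before the start site, and Cdk6 held 1 at 220 bases. Of 32851 RefSeq windows of this length 6.02% held at least 1 E-box, and 7 windows (0.0213%) held 4 or more. Cdk2 held 1 E2F match at 140 bases, a motif found in 1.86% of windows. The first Ccnd3 window held 1 FOXO match at 243 bases (3.17% of windows), and no letters of these 4 motifs matched in the Ccne1 window or in the second Ccnd3 window. No RBPJ match was found in any of the 6 windows, and 5.42% of all windows held 1. A match is a run of letters and was not tied to binding here.

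Libraries of a group were not always alike. In 10 libraries Actb, a cytoskeletal actin gene, measured 12355 to 85337 TPM, against 217 to 2974 TPM in the other 35. The 10 were all 3 libraries of DL1 cells with LPS at 20 h, all 3 of OP9 cells with anti-IgM at 20 h, and replicate 3 at 68 h of unstimulated OP9 cells, OP9 cells with LPS, DL1 cells with LPS and OP9 cells with anti-IgM. The limit of 10000 TPM was set after the values were seen, and comparisons that hold such a library were also fitted without them where both groups remained. At 20 h high Actb and the stroma cannot be told apart, since it covers whole groups. At 44 h and in Blimp1+ cells no library had it. Summed over 12 stroma markers, unstimulated OP9 libraries measured 1047 to 15077 TPM and the other 42 libraries 31.1 to 399 TPM. The 9 B cell markers summed to 530 to 2325 TPM in unstimulated OP9 libraries and to 5874 to 6757 TPM in unstimulated DL1 libraries, and none of the 9 was at 0 throughout a group. T cell markers summed to 0.42 to 20.4 TPM and myeloid markers to 6.72 to 98.3 TPM, the latter highest in an unstimulated OP9 library. Estimated reads per library, in units of 1000000, ran from 3.07 to 29.1.

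Cdk4 was the most abundant of the 8 genes in every group but 1, with group means of 311 to 1073 scaled TPM. In OP9 cells with anti-IgM at 20 h Ccnd2 averaged 377 ± 75.4 and Cdk4 363 ± 187. All values below are TPM divided by a size factor per library (scaled TPM) unless deposited TPM is named, and errors after ± are standard deviations of 3 libraries or, for log2 changes, standard errors from limma. TPM corrects for transcript length, so levels of different genes can be set side by side. Ccnd2 and Ccnd3 followed Cdk4 with medians over 45 libraries of 133.7 and 140.2, then Cdk2 (66.3), Ccne1 (41.6) and Ccne2 (32.6). Cdk6 had a median of 8.15 and Ccnd1 of 0.556. The order of the group means was poorly resolved for most genes: among the 14 pairs of neighbouring groups, ranges did not overlap in 4 pairs for Cdk4, in 2 for Ccnd2 and Ccne1, in 1 for Ccnd1, Ccnd3, Ccne2 and Cdk6, and in none for Cdk2.

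**Figure D1:**
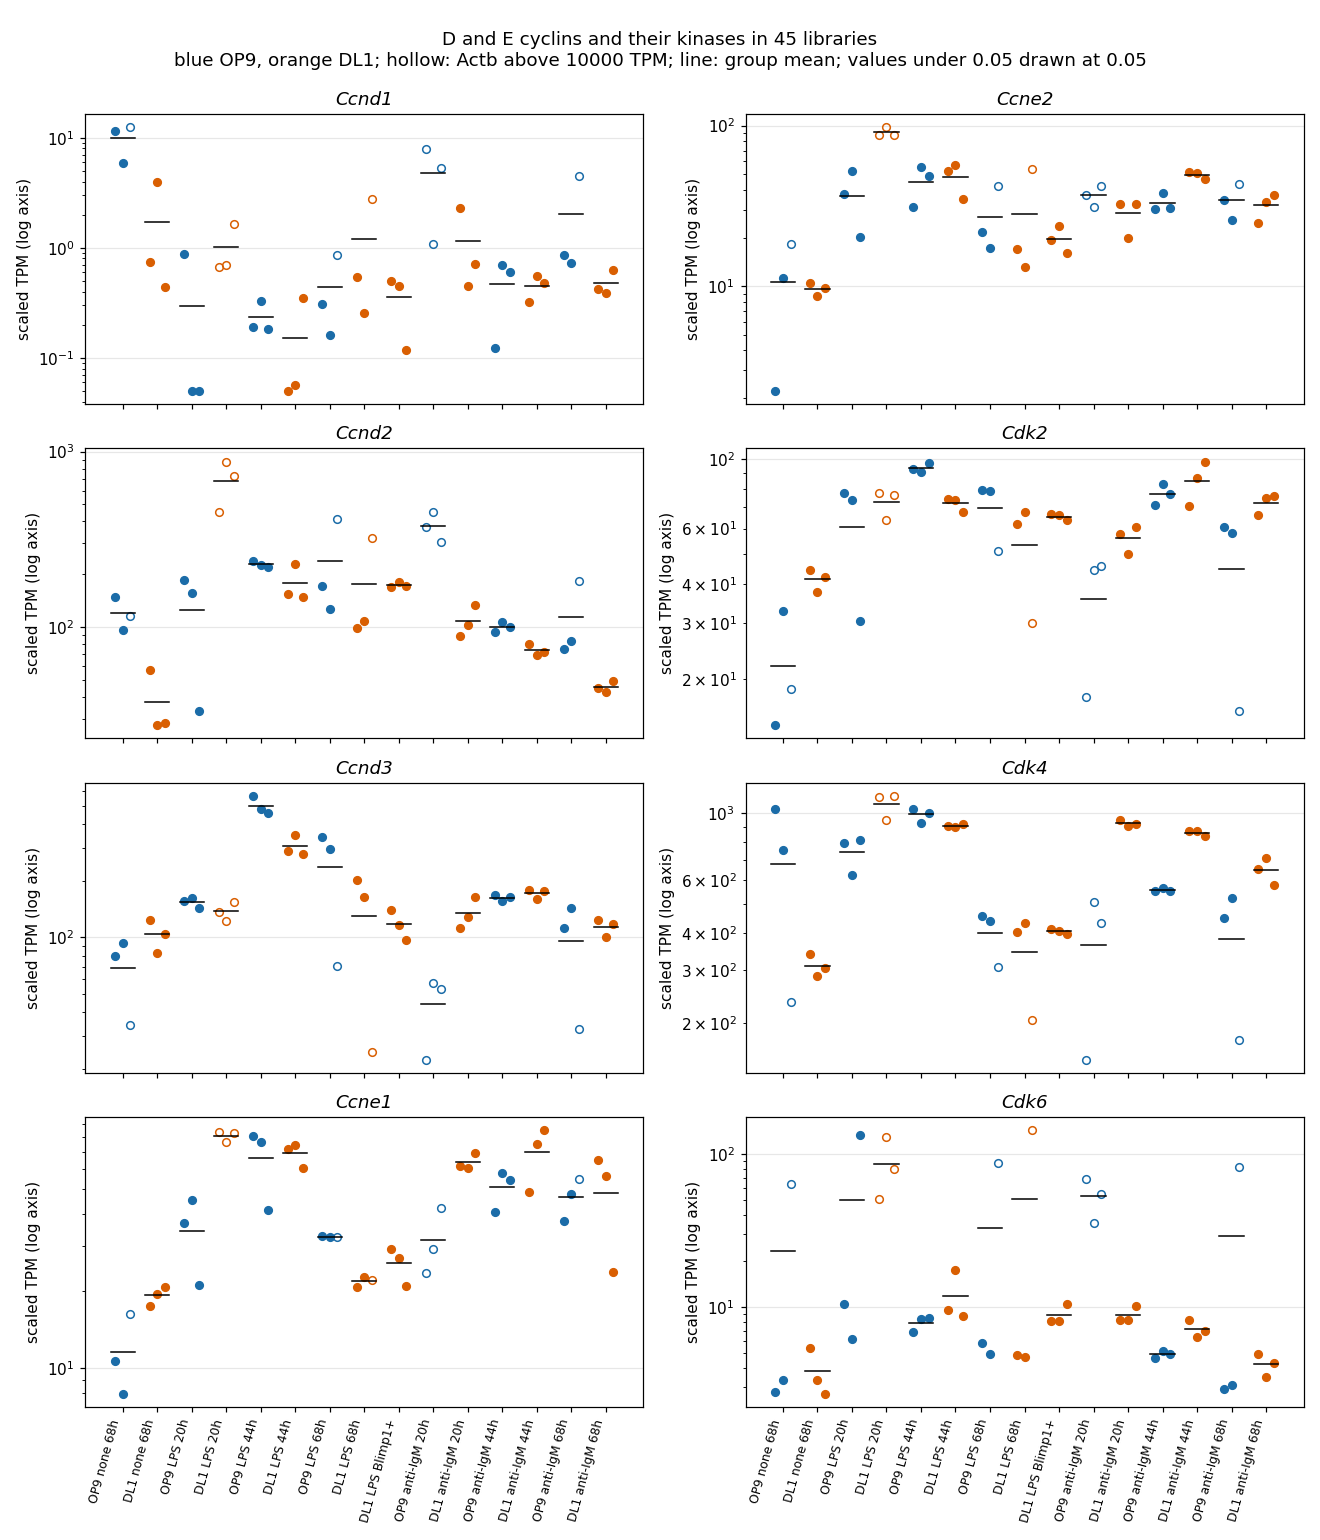
Scaled TPM of the 8 genes on log axes, with the 15 groups on the horizontal axis, 1 point per library and a line at each group mean. Hollow points are the 10 libraries with Actb above 10000 TPM, where Cdk6 lay between 35.2 and 144 and Ccnd3 between 22.4 and 153.7.

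The D cyclins divided into a pair detected throughout and Ccnd1, which was near 0. Ccnd1 measured 11.4, 5.94 and 12.5 in the 3 unstimulated OP9 libraries, and at most 3.97 in the 33 other libraries without high Actb. Of the other 9 libraries with high Actb, those of OP9 cells with anti-IgM at 20 h measured 7.87, 1.08 and 5.33 and replicate 3 of OP9 cells with anti-IgM at 68 h 4.5, at stroma marker sums of 63.5, 75.7, 189 and 52.1 TPM. The 3 unstimulated OP9 libraries were those with the highest stroma markers, and the part of these markers or of high Actb in the Ccnd1 values was not tested. Ccnd2 and Ccnd3 traded places between libraries. Ccnd3 made up 33.1% to 81.2% of the summed D cyclin TPM in the 35 libraries without high Actb (median 65%) and 5.59% to 23.1% in the 10 with it (median 14.6%). A share within a library does not depend on scaling between libraries. Ccnd3 exceeded 50% in 29 of the 35 libraries and in 0 of the 10. At 44 h, where no library had high Actb, its share averaged 68.5 ± 1.5% in OP9 cells with LPS, 63.5 ± 2.65% in DL1 cells with LPS, 61.7 ± 2.39% in OP9 cells with anti-IgM and 69.7 ± 0.921% in DL1 cells with anti-IgM. Blimp1+ cells had a Ccnd3 share of 36.2%, 39.3% and 45.2%, below all 12 libraries at 44 h.

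The kinases of the D cyclins were as unequal. Cdk6 made up 0.267% to 1.89% of Cdk4 plus Cdk6 in most libraries without high Actb. The exceptions were the Blimp1+ libraries at 1.92% to 2.58% and replicate 3 of OP9 cells with LPS at 20 h at 14.1%. In the 10 libraries with high Actb the Cdk6 share ran from 4.29% to 41.3%. Replicate 3 of OP9 cells with LPS at 20 h had Cdk6 at 133 where its 2 partners measured 10.5 and 6.2, although its Actb was low. That library also had the lowest Ccnd2 of its group (33.2, against 186.5 and 156), and Myc at 745 against 340.5 and 377. Group means of Cdk6 that hold such a library rest on it.

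**Figure D2:**
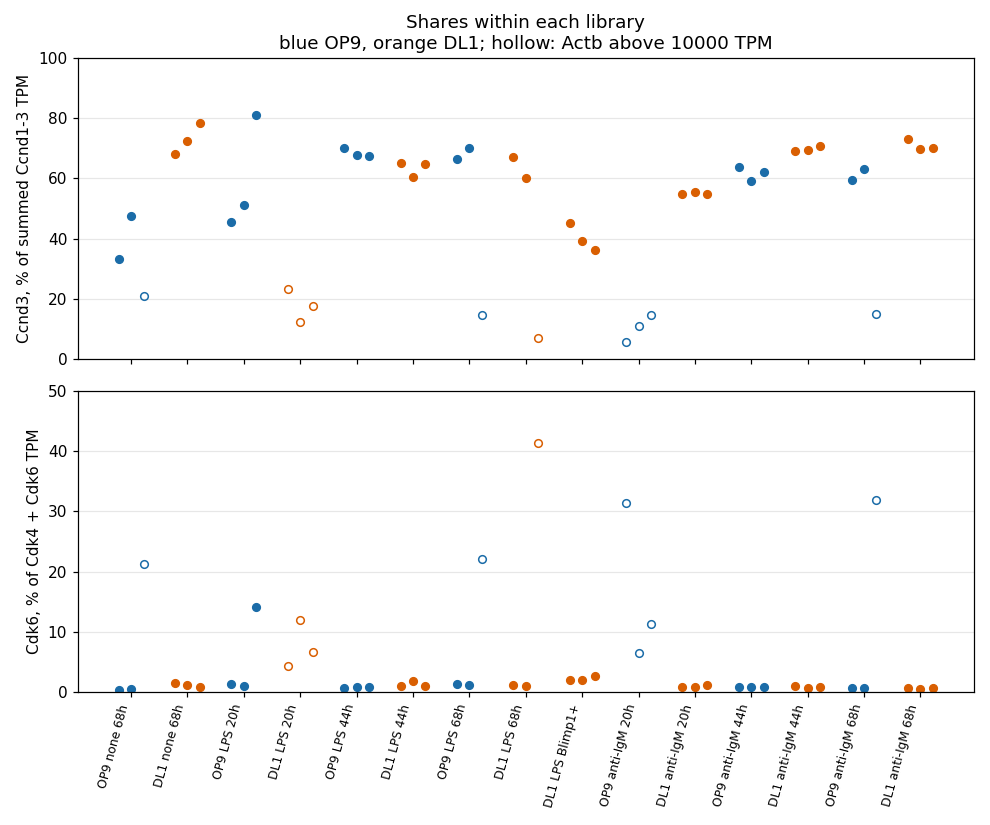
Percent of Ccnd3 in the summed TPM of Ccnd1, Ccnd2 and Ccnd3 (top) and of Cdk6 in Cdk4 plus Cdk6 (bottom), 1 point per library by group, hollow where Actb exceeds 10000 TPM. Hollow points lie at 5.59% to 23.1% for Ccnd3 and at 4.29% to 41.3% for Cdk6.

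**Figure D3:**
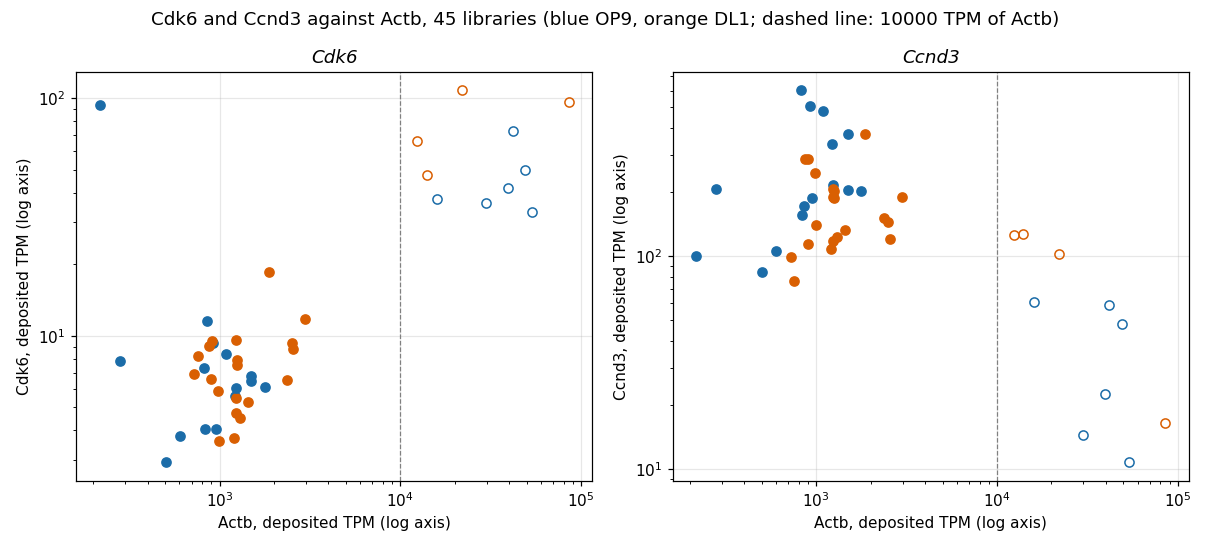
Deposited TPM of Cdk6 (left) and Ccnd3 (right) against deposited TPM of Actb on log axes, 1 point per library, with a dashed line at 10000 TPM. To the right of the line lie 10 hollow points, whose Cdk6 exceeds that of every filled point but 1, replicate 3 of OP9 cells with LPS at 20 h.

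Whether the Notch ligand alone altered these genes was asked in unstimulated cells at 68 h. Of the 8 genes 2 were called (adjusted p below 0.05 over all genes tested), where 26.5% of all genes were. Ccnd2 measured 57.1, 27.6 and 28.3 in DL1 libraries and 149, 96.2 and 116 in OP9 libraries, so that the groups did not overlap (log2 -1.71 ± 0.46, adjusted p = 0.00433). Ccnd1 averaged 1.72 ± 1.95 in DL1 cells and 9.93 ± 3.5 in OP9 cells (log2 -2.18 ± 0.48, adjusted p = 0.000594). The share of members called was near that of all genes, and the OP9 group is the one with the stroma markers. Ccnd3 measured 124, 82.3 and 104.5 in DL1 libraries and 79.6, 93 and 34.1 in OP9 libraries, with overlap (log2 0.68 ± 0.53, adjusted p = 0.379). In the fit without high Actb libraries, which leaves 2 OP9 libraries, the log2 effects were -1.73 for Ccnd2 and -2.00 for Ccnd1. Cdk4 measured 340, 288 and 304 in DL1 libraries, and 1034, 753 and 235 in OP9 libraries, the lowest being the library with high Actb. Without that library Cdk4 was called lower in DL1 cells (log2 -1.51 ± 0.14, adjusted p = 1.45e-09), while Ccne1 (log2 0.99 ± 0.33) and Cdk2 (log2 0.89 ± 0.27) were called higher, beside 41.8% of all genes. Stroma markers summed to 15077 and 10640 TPM in the 2 OP9 libraries kept, and to 1047 TPM in the library left out. The part of these markers in the changes was not tested. In bulk RNA a change in the mix of cells and a change of RNA per cell cannot be told apart. The Ccnd2 call was lost with TPM as deposited (log2 -1.2, adjusted p = 0.0591), that of Ccnd1 with the authors' deposited log2 values (adjusted p = 0.0657), and both with only the groups compared (adjusted p = 0.0503 for Ccnd2, and 0.0783 for Ccnd1).

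With the stimuli at 44 h few genes of any kind were called for the ligand in the fit of all 45 libraries. With LPS 0.16% of all genes were called, and 0 of the 8 (0.833% and 0 of 8 with only the groups compared). Ccnd3 measured 287, 351 and 277 in DL1 libraries and 565, 481 and 455 in OP9 libraries, without overlap, and its log2 effect of -0.71 ± 0.53 was not called (adjusted p = 1). In the fit without high Actb libraries, which has a smaller estimate of the spread from 35 libraries, the same difference was called (log2 -0.71 ± 0.17, adjusted p = 0.0385), beside 0.698% of all genes. With anti-IgM at 44 h 0.897% of all genes were called, and 0 of the 8. With only the groups compared it was 16% of all genes and 3 of the 8. Cdk4 measured 872, 868 and 837 in DL1 libraries and 551, 563 and 551 in OP9 libraries, with no overlap (log2 0.63 ± 0.38, adjusted p = 0.769). Without high Actb libraries this Cdk4 difference was called (log2 0.63 ± 0.12, adjusted p = 0.00214), beside 5.96% of all genes. The difference between the Cdk4 effects with LPS and with anti-IgM at 44 h was a log2 of -0.75, not called in all libraries (adjusted p = 1, beside 0.0833% of all genes) and called without high Actb libraries (adjusted p = 0.026, beside 1.5% of all genes). With only the groups compared the difference of ligand effects at 44 h was called for 2 of 8 genes, beside 8.01% of all genes. At 68 h 0 of the 8 genes were called with either stimulus, where 0.064% of all genes were called with LPS and 1.73% with anti-IgM, and without high Actb libraries 0 of 8 were called with LPS too (0.147% of all genes). The Ccnd2 effect with anti-IgM at 68 h was a log2 of -1.18 ± 0.46 (adjusted p = 0.159), with 44.8, 42.6 and 49.3 in DL1 libraries against 74.9, 82.9 and 183 in OP9 libraries. Without high Actb libraries it was -0.78 ± 0.42 and 0 of 8 genes were called, beside 5.87% of all genes.

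At 20 h Ccnd2 was higher with the ligand under LPS and lower under anti-IgM, and each comparison sets a group of high Actb against one with low Actb. With LPS, Ccnd2 measured 451, 877 and 722 in DL1 libraries, all with high Actb, and 186.5, 156 and 33.2 in OP9 libraries (log2 2.72 ± 0.46, adjusted p = 0.000213). Ccne1 rose as well, from 34.5 ± 12.3 in OP9 cells to 81 ± 3.9 in DL1 cells (log2 1.27 ± 0.31, adjusted p = 0.00745). Ccne2 averaged 36.7 ± 16 and 90.7 ± 5.99 (log2 1.38 ± 0.44, adjusted p = 0.0456). That made 3 of 8 genes called, where 8.81% of all genes were. With anti-IgM the high Actb group was that on OP9, and Ccnd2 measured 371, 455 and 304.5 there against 89.2, 102 and 134 in DL1 libraries (log2 -1.79 ± 0.46, adjusted p = 0.00903). Cdk4 went the other way, with 948, 903 and 917 in DL1 libraries against 151, 506 and 432 in OP9 libraries (log2 1.52 ± 0.38, adjusted p = 0.00843). Ccnd3 (log2 1.68 ± 0.53, adjusted p = 0.0271) and Ccne1 (log2 1.03 ± 0.31, adjusted p = 0.0204) were higher in DL1 cells too. That made 4 of 8 genes called, where 20.5% of all genes were. With either stimulus Ccnd2 was thus higher on the side with high Actb, whichever stroma that was, and high Actb cannot be told apart from the stroma there. The ligand's effect with LPS minus that with anti-IgM was called at 20 h for 4 of 8 genes, where 19.4% of all genes were called: Ccnd2 (log2 4.51 ± 0.64, adjusted p = 0.000113), Cdk6 (4.29 ± 1.55, adjusted p = 0.0476), Ccnd1 (1.94 ± 0.67, adjusted p = 0.0401) and Ccne2 (1.76 ± 0.63, adjusted p = 0.0453). At 68 h it was called for 0 of 8, beside 0.199% of all genes, and without high Actb libraries for 0 of 8, beside 0.653%.

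Several of these 20 h calls depended on single libraries. The Ccne2 effect with LPS was not called when any of 5 of its 6 libraries was left out, all but OP9 replicate 2 (log2 1.01 to 1.45, adjusted p = 0.071 to 0.206), and the Ccne1 effect was not called without OP9 replicate 3 (log2 0.966, adjusted p = 0.0536). With anti-IgM, leaving out OP9 replicate 1 ended the calls of Cdk4 (log2 0.979, adjusted p = 0.107), Ccnd3 and Ccne1. Ccnd3 was also not called when any DL1 library was left out, nor Ccne1 without DL1 replicate 1 or 3 (adjusted p from 0.0548 to 0.176 for Ccnd3 and from 0.0531 to 0.12 for Ccne1). The Ccnd2 effects at 20 h, and its difference between the stimuli, were called whichever library was left out. That difference was lost for Ccnd1 without any of 8 of the 12 libraries (adjusted p = 0.0588 to 0.136), and for Ccne2 and Cdk6 without any of 10 (adjusted p = 0.0556 to 0.118 and 0.0532 to 0.122). It was also lost for Ccnd1 with TPM as deposited (adjusted p = 0.0792), no filter (0.0708) and only the groups compared (0.135), for Cdk6 with quantile normalization (0.0686) and no filter (0.0855), and for Ccne2 in 5 settings (0.055 to 0.263), while that of Ccnd2 was kept in every setting that could be fitted. With only the groups compared, the 3 LPS calls were lost (adjusted p = 0.133 to 0.149), as were those of Ccnd3, Ccne1 and Cdk4 with anti-IgM (0.0611 to 0.0945). The Ccne1 and Ccne2 calls with LPS were lost with TPM as deposited (0.138 and 0.13) and the authors' deposited log2 values (0.0922 and 0.0932), and that of Ccne2 with quantile normalization (0.132), a pseudocount of 0.1 (0.0577) and no filter (0.0838). The Ccnd2 call with anti-IgM was lost with TPM as deposited (0.0608) and the authors' deposited log2 values (0.059).

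**Figure D4:**
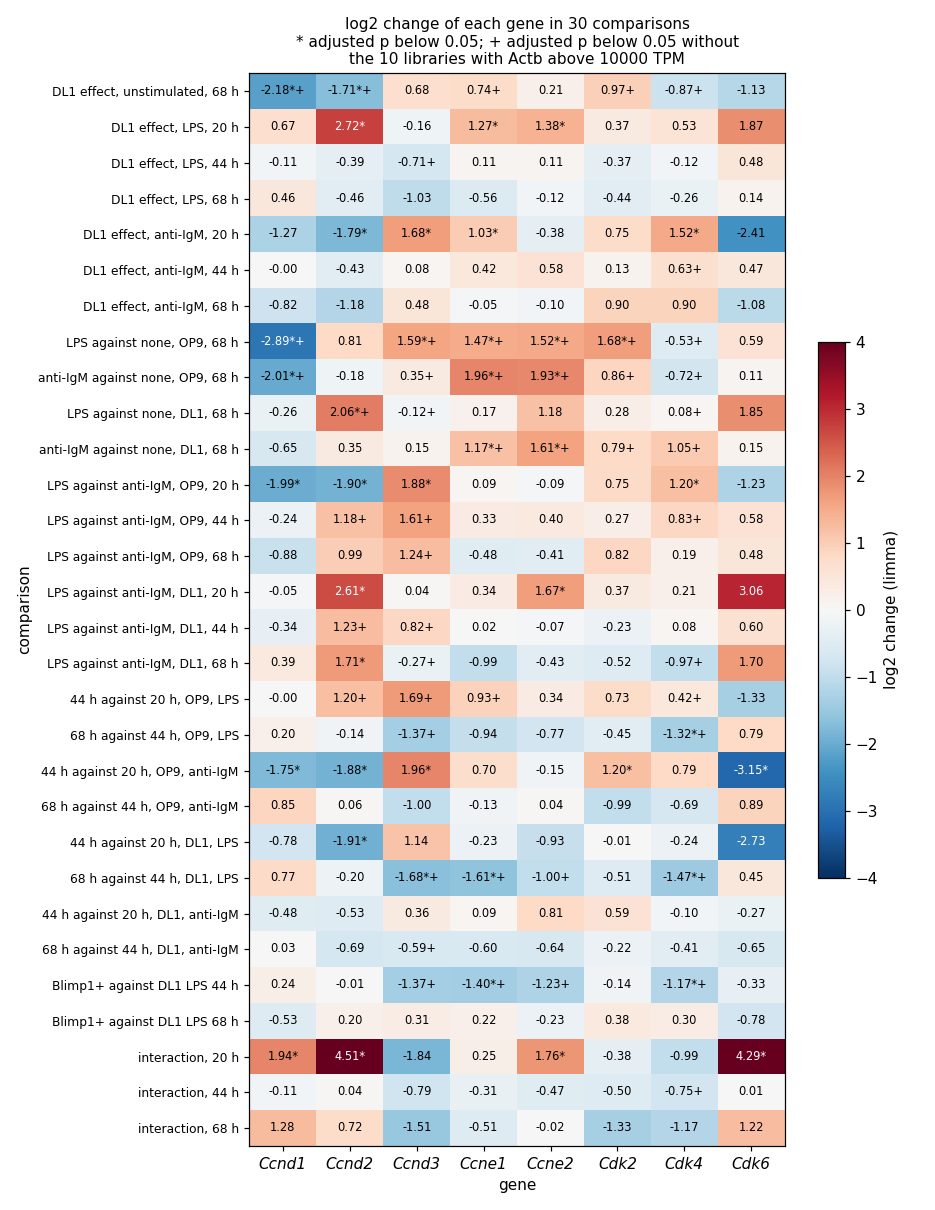
Log2 changes of the 8 genes (columns) in 30 comparisons (rows), from limma on all 45 libraries, coloured from blue (lower in the first group) to red (higher). A star marks an adjusted p below 0.05 and a plus sign one below 0.05 without the 10 libraries with Actb above 10000 TPM, which cannot be computed for most comparisons at 20 h and can have another sign than the value printed (Ccnd3 with LPS in DL1 cells at 68 h). Rows named interaction hold the ligand's effect with LPS minus that with anti-IgM.

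What each stimulus did against medium alone was asked at 68 h. On OP9 stroma the E cyclins rose and Ccnd1 fell with both stimuli, and Cdk2 and Ccnd3 rose with LPS. With LPS 5 of 8 genes were called, where 30.5% of all genes were, and with anti-IgM 3 of 8, where 23.9% were. The unstimulated OP9 libraries held stroma marker sums of 1047 to 15077 TPM and B cell marker sums of 530 to 2325 TPM. The part of these in the changes on OP9 stroma was not tested. Ccne1 measured 32.7 in each of the 3 libraries with LPS, 37.5, 47.9 and 54.8 with anti-IgM, and 10.6, 7.95 and 16.3 without stimulus. No stimulated library overlapped with the unstimulated ones (log2 1.47 ± 0.31 with LPS, adjusted p = 0.000254, and 1.96 ± 0.31 with anti-IgM). Ccne2 measured 21.8, 17.3 and 42 with LPS, 34.4, 25.9 and 43.2 with anti-IgM, and 2.23, 11.3 and 18.4 without (log2 1.52 ± 0.44 and 1.93 ± 0.44). The highest unstimulated and the highest LPS value of Ccne2 came from libraries with high Actb, and the overlap with LPS was that unstimulated library. Cdk2, the partner of the E cyclins, averaged 69.7 ± 16.1 with LPS and 21.9 ± 9.79 without (log2 1.68 ± 0.38, adjusted p = 0.000632). With anti-IgM Cdk2 measured 60.5, 58.1 and 15.8 against 14.2, 33 and 18.6, with overlap through the high Actb library (log2 0.86 ± 0.38, adjusted p = 0.0997).

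The D cyclins moved in different directions on OP9 stroma. Ccnd1 was lower with LPS by 2.89 ± 0.48 on the log2 scale (log2 -2.89), and with anti-IgM by 2.01 (log2 -2.01 ± 0.48, adjusted p = 0.00137), against the unstimulated group with stroma markers. All 10 of the 12 stroma markers that could be tested were likewise lower in both comparisons. Ccnd3 measured 339, 295.5 and 70.7 with LPS and 79.6, 93 and 34.1 without, where the lowest value of each group was its high Actb library. Its log2 change was 1.59 ± 0.53 (adjusted p = 0.0214), and 1.87 ± 0.21 without these libraries (adjusted p = 2.54e-08). The Ccnd3 call was lost when unstimulated replicate 3 or LPS replicate 1 or 2 was left out (log2 1.15 to 1.28, adjusted p = 0.117 to 0.148), and the Ccne2 call with LPS without unstimulated replicate 1 or LPS replicate 3 (log2 0.764 to 1.16, adjusted p = 0.0711 to 0.17). Without high Actb libraries 6 of 8 genes were called with LPS, beside 39.6% of all genes, and 6 of 8 with anti-IgM, beside 39% of all genes. Cdk4 was among them and lower with both stimuli (log2 -0.98 ± 0.15 and -0.87 ± 0.15, adjusted p = 6.5e-06 and 3.7e-05). The unstimulated libraries kept in this fit were those with stroma marker sums of 15077 and 10640 TPM. The part of these markers in the Cdk4 values was not tested. The Ccnd3 call with LPS was lost with TPM as deposited and the authors' deposited log2 values (adjusted p = 0.0936 and 0.093), and the latter also ended that of Ccnd1 with anti-IgM (0.0662). With only the groups compared none of these 8 calls on OP9 stroma was kept except that of Ccnd1 with LPS.

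On DL1 stroma, where stroma markers summed to 160.9 to 366.5 TPM in the unstimulated libraries, Ccnd2 rose with LPS and the E cyclins with anti-IgM. With LPS 1 of 8 genes was called, where 8.1% of all genes were. Ccnd2 measured 98.8, 108 and 323 with LPS, the highest being the high Actb library, and 57.1, 27.6 and 28.3 without (log2 2.06 ± 0.46, adjusted p = 0.0025). Without that library Ccnd2 stayed called (log2 1.51, adjusted p = 0.0121), as were Ccnd3 (log2 0.82) and Cdk4 (log2 0.42), beside 16.5% of all genes. With that library the Ccnd3 change was a log2 of -0.12, of the opposite sign, and the Cdk4 change 0.08. With anti-IgM 2 of 8 genes were called, where 9.52% of all genes were, and no library of either group had high Actb. Ccne2 measured 24.9, 33.7 and 37.1 with anti-IgM and 10.5, 8.66 and 9.7 without (log2 1.62 ± 0.44, adjusted p = 0.015). Ccne1 measured 64.9, 56.4 and 23.9 against 17.6, 19.6 and 20.9 (log2 1.16 ± 0.31, adjusted p = 0.0105). Cdk4 measured 653, 711 and 576 with anti-IgM, all above the unstimulated 340, 288 and 304, and its log2 change of 1.05 ± 0.38 was called in the fit without high Actb libraries (adjusted p = 5.27e-07, beside 26.4% of all genes) but not with all libraries (adjusted p = 0.0792). The Ccne1 call was lost without unstimulated replicate 1 or anti-IgM replicate 1 or 2 (log2 0.898 to 1.1, adjusted p = 0.0513 to 0.105), and that of Ccne2 without unstimulated replicate 2 or anti-IgM replicate 2 or 3 (log2 1.5 to 1.57, adjusted p = 0.0565 to 0.0722). Both were lost with TPM as deposited (adjusted p = 0.195 and 0.0555), and that of Ccne1 with the authors' deposited log2 values (0.107) and only the groups compared (0.0625), which also ended the Ccnd2 call with LPS (0.127). For anti-IgM the fit of only the groups compared called 3 of 8 genes, beside 24.2% of all genes. The LPS and anti-IgM comparisons share their unstimulated libraries on each stroma.

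Between the stimuli, the D cyclins and Cdk4 were compared at each time and stroma. At 44 h, free of high Actb libraries, Ccnd2 measured 239, 227 and 220 in OP9 cells with LPS and 94, 107 and 99.6 with anti-IgM. Ccnd3 measured 565, 481 and 455 against 167, 156 and 163.5. Both genes were higher with LPS in every library, by a log2 of 1.18 and 1.61, and neither was called with all libraries in the fit (adjusted p = 0.113 and 0.0533, where 8.63% of all genes were called). In the fit without high Actb libraries both were called (adjusted p = 0.0237 for Ccnd2 and 6.22e-08 for Ccnd3), as was Cdk4 (989 ± 53.7 with LPS and 555 ± 6.97 with anti-IgM, log2 0.83, adjusted p = 1.56e-05), beside 19.7% of all genes. With only the groups compared 4 of 8 genes were called, beside 32% of all genes. DL1 cells at 44 h showed the same order for the D cyclins, with Ccnd2 at 154, 230 and 149 with LPS against 80.1, 69.8 and 72.3 with anti-IgM, and Ccnd3 at 305 ± 40.1 against 172 ± 10. Their log2 differences of 1.23 and 0.82 were called without high Actb libraries (adjusted p = 0.038 and 0.00144, beside 8.7% of all genes), and with all libraries 0 of 8 genes were called, where 2.91% of all genes were. With only the groups compared 2 of 8 were called, beside 15.6% of all genes. Cdk4 was also higher with LPS in every DL1 library, by little, with 908, 899 and 917 against 872, 868 and 837 (log2 0.08 ± 0.38, adjusted p = 1).

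At 68 h Ccnd3 stayed higher with LPS in OP9 cells outside the high Actb libraries, at 339 and 295.5 against 112 and 143. Replicate 3 of each group, with high Actb, measured 70.7 and 32.7. The log2 difference was 1.24 with all libraries, where 0 of 8 genes were called beside 4.56% of all, and 1.32 without those libraries (adjusted p = 7.85e-05, beside 7.94% of all genes). In DL1 cells Ccnd2 was called higher with LPS, where 4.39% of all genes were called (log2 1.71 ± 0.46, adjusted p = 0.0216). Replicate 3 with LPS, the high Actb library at 323, decided this call: with it left out alone the log2 difference was 1.16 (adjusted p = 0.282), and without all high Actb libraries the adjusted p was 0.096. The call was also lost when any of the 3 anti-IgM libraries was left out (adjusted p = 0.0587 to 0.0858), with TPM as deposited (0.0608), the authors' deposited log2 values (0.089) and only the groups compared (0.203). Cdk4 and Ccnd3 were called in the fit without high Actb libraries in opposite directions, Cdk4 lower with LPS (log2 -0.63, adjusted p = 0.0038) and Ccnd3 higher (log2 0.68, adjusted p = 0.0219), beside 7.61% of all genes. With all libraries the Ccnd3 difference was a log2 of -0.27, of the opposite sign.

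At 20 h the contrast of the stimuli again set high against low Actb on each stroma. In OP9 cells 4 of 8 genes were called, where 28.5% of all genes were. Ccnd2 and Ccnd1 were lower with LPS (log2 -1.90 ± 0.46 and -1.98 ± 0.48), while Ccnd3 (154 ± 10.2 against 44.2 ± 18.9, log2 1.88 ± 0.53) and Cdk4 (744 ± 107 against 363 ± 187, log2 1.20 ± 0.38) were higher. In DL1 cells 2 of 8 were called, where 7.11% of all genes were: Ccnd2 was higher with LPS (683.5 ± 216 against 108 ± 22.9, log2 2.61 ± 0.46), as was Ccne2 (90.7 ± 5.99 against 28.4 ± 7.23, log2 1.67 ± 0.44). The direction for Ccnd2 was thus opposite on the 2 stromas. The Ccnd3 call in OP9 cells was lost without anti-IgM replicate 1 (log2 1.47, adjusted p = 0.0774), that of Cdk4 also without LPS replicate 1 or 3 (log2 0.658 to 1.15, adjusted p = 0.0509 to 0.237), and that of Ccne2 in DL1 cells without LPS replicate 2 or 3 or anti-IgM replicate 2 (log2 1.45 to 1.7, adjusted p = 0.0521 to 0.103). With only the groups compared, 3 of 8 genes were called in DL1 cells, beside 22% of all genes. The 4 calls in OP9 cells were lost in that setting (adjusted p = 0.0879 to 0.259). TPM as deposited ended those of Cdk4 in OP9 cells (0.0632) and Ccne2 in DL1 cells (0.0957), as did quantile normalization (0.0525 and 0.0668), and the authors' deposited log2 values ended the latter (0.0709).

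Over time with LPS, Cdk4 was called lower at 68 h than at 44 h on both stromas, and Ccne1 and Ccnd3 in DL1 cells. In DL1 cells Ccne1 measured 72.2, 74.7 and 60.5 at 44 h and 20.7, 22.7 and 22.1 at 68 h (log2 -1.61 ± 0.31, adjusted p = 0.000672), with no overlap, and the call was kept whichever library was left out. Cdk4 went from 908, 899 and 917 to 403, 429 and 204 (log2 -1.46 ± 0.38, adjusted p = 0.0138), and Ccnd3 from 287, 351 and 277 to 202, 163 and 24.6 (log2 -1.68 ± 0.53, adjusted p = 0.0482). The lowest Cdk4 and Ccnd3 values belonged to replicate 3, with high Actb, and without it the log2 changes were -1.12 and -0.74, called in the fit without such libraries (adjusted p = 3.31e-06 and 0.00809). Leaving out replicate 3 alone ended both calls (adjusted p = 0.134 and 0.571), as did leaving out replicate 1 at 44 h (adjusted p = 0.0505 for Cdk4 and 0.116 for Ccnd3). For Ccnd3 so did leaving out either other library at 44 h (adjusted p = 0.145 and 0.104). Both calls were also lost with TPM as deposited (adjusted p = 0.166 for Cdk4 and 0.204 for Ccnd3), quantile normalization (0.158 and 0.162), the authors' deposited log2 values (0.101 and 0.141) and only the groups compared (0.0833 and 0.336), and that of Ccnd3 with a pseudocount of 0.1 (0.0509) and no filter (0.0875). The Ccne1 call was kept in all of these. In all 3 of 8 genes were called, where 7.18% of all genes were, and without high Actb libraries Ccne2 was called as well (log2 -1.59, adjusted p = 0.00579, beside 13.4% of all genes). In OP9 cells Cdk4 was the only 1 of 8 called, where 6.91% of all genes were. It went from 1034, 930 and 1003 to 455, 437.5 and 308 (log2 -1.32 ± 0.38, adjusted p = 0.027), a call lost when any library at 44 h or replicate 3 at 68 h was left out (adjusted p = 0.065 to 0.15) and kept without high Actb libraries (log2 -1.14, adjusted p = 1.84e-06, beside 12.9% of all genes). With all libraries the Cdk4 call in OP9 cells was lost with TPM as deposited, quantile normalization and the authors' deposited log2 values (adjusted p = 0.257, 0.144 and 0.212). The fit without high Actb libraries also called Ccnd3 lower at 68 h in OP9 cells (log2 -0.65, adjusted p = 0.0191). Ccne1 fell in OP9 cells too, from 81, 76.7 and 41.6 to 32.7 in each library, without overlap, and was not called with all libraries.

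From 20 to 44 h with LPS in OP9 cells 0 of 8 genes were called, where 1.74% of all genes were. Ccnd3 measured 156, 163 and 143 at 20 h and 565, 481 and 455 at 44 h, a log2 change of 1.69 ± 0.53 (adjusted p = 0.107) that was called in the fit without high Actb libraries (adjusted p = 3.07e-07). That fit also called Ccnd2 (log2 1.20), Ccne1 (log2 0.93) and Cdk4 (log2 0.42) higher at 44 h, beside 9.06% of all genes. It keeps replicate 3 at 20 h, with Ccnd2 at 33.2 against 186.5 and 156, and Ccne1 at 21.1 against 37 and 45.3. The part of this library in the Ccnd2 and Ccne1 changes was not tested. In DL1 cells the 20 h group had high Actb, and Ccnd2 went from 683.5 ± 216 to 178 ± 45.2 (log2 -1.91 ± 0.46, adjusted p = 0.0167), the 1 of 8 called where 2.21% of all genes were. This call was lost without replicate 2 or 3 at 20 h or replicate 1 or 3 at 44 h (log2 -1.85 to -1.71, adjusted p = 0.0711 to 0.105), and with each other scaling (0.0527 to 0.0822). With only the groups compared 4 of 8 genes were called in this comparison, beside 19.6% of all genes.

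With anti-IgM the 20 h OP9 group, again of high Actb, differed from 44 h in 5 of 8 genes, where 24.2% of all genes were called. Ccnd1, Ccnd2 and Cdk6 fell (log2 -1.75, -1.88 and -3.14) and Ccnd3 and Cdk2 rose (log2 1.96 and 1.20). Cdk6 measured 69, 35.2 and 55.2 at 20 h and 4.65, 5.17 and 4.91 at 44 h (adjusted p = 0.0355), without overlap. Only the Ccnd2 call (adjusted p = 0.0052) was kept whichever library was left out, and it was lost with TPM as deposited (0.066) and the authors' deposited log2 values (0.052). Without 20 h replicate 1 the other 4 were lost (highest adjusted p = 0.0894 for Ccnd1, 0.0829 for Ccnd3, 0.198 for Cdk2 and 0.12 for Cdk6 over all libraries whose removal ended the call). The Ccnd1 call was also lost with the authors' deposited log2 values (0.0594) and only the groups compared (0.102), that of Cdk2 with the latter (0.0989) and that of Cdk6 with no filter (0.0569). In DL1 cells, whose anti-IgM groups hold no high Actb library, 0 of 8 genes were called from 20 to 44 h (0.0576% of all genes) or from 44 to 68 h (0.179%). With only the groups compared the counts were 0 (0.98% of all genes) and 3 (7.44%). Cdk4 measured 948, 903 and 917 at 20 h, 872, 868 and 837 at 44 h, and 653, 711 and 576 at 68 h, and Ccnd3 went from 172 ± 10 at 44 h to 114 ± 12.3 at 68 h (log2 -0.59, called without high Actb libraries, adjusted p = 0.0465, beside 3.44% of all genes). In OP9 cells from 44 to 68 h 0 of 8 were called, where 0.0128% of all genes were, and 0 of 8 without high Actb libraries, where 0.122% were.

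Blimp1+ cells, sorted for the reporter of the plasma cell regulator, were set against whole cultures at 44 and 68 h, since their own time is not labelled. Their 5 plasma cell markers summed to 2830 to 3178 TPM, against 188 to 201 TPM at 44 h. Stroma markers summed to 98.8 to 163 TPM against 31.1 to 62 TPM and B cell markers to 3675 to 3896 against 1427.5 to 1549.5 TPM, and the part of these in the values was not tested. Against 44 h, 2 of 8 genes were called, where 12% of all genes were. Ccne1 measured 29.4, 26.9 and 21 in Blimp1+ cells and 72.2, 74.7 and 60.5 at 44 h (log2 -1.40 ± 0.31, adjusted p = 0.00154). Cdk4 measured 411, 406 and 396 against 908, 899 and 917 (log2 -1.17 ± 0.38, adjusted p = 0.0396). Neither gene overlapped between the groups, yet the Cdk4 call was lost when any of the 6 libraries was left out (log2 -1.18 to -1.15, adjusted p = 0.0921 to 0.103). It was also lost with TPM as deposited, quantile normalization, the authors' deposited log2 values and no filter (adjusted p = 0.136, 0.13, 0.243 and 0.0707), while the Ccne1 call was kept in all of these. With only the groups compared 4 of 8 genes were called, beside 33.7% of all genes. Without high Actb libraries, none of which is in these groups, 4 of 8 genes were called beside 24.5% of all genes, with Ccnd3 (118 ± 21.6 against 305 ± 40.1, log2 -1.37) and Ccne2 (log2 -1.23) added. Ccnd2 did not share this: it measured 170, 180 and 171 in Blimp1+ cells and 154, 230 and 149 at 44 h (log2 -0.01 ± 0.46). Against 68 h 0 of 8 genes were called, where 2.84% of all genes were. The Blimp1+ values of Cdk4 lay close to the 403 and 429 of the 2 libraries at 68 h without high Actb (log2 0.30 ± 0.38 over all 3, and -0.04 ± 0.14 without the high Actb library).

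Genes around the members were taken from lists of the same pathway and are described by counts over all genes tested and by medians. The lists were chosen with earlier results of these data known. Of 6 later cyclins and Cdk1, which carry the cycle on to mitosis, 5 could be tested, and all 5 were called higher in OP9 cells at 68 h with LPS (median log2 4.2, all genes -0.21) and with anti-IgM (median 3.49, all genes -0.07), where 11.4% and 8.35% of all genes were called higher. In DL1 cells 4 rose with LPS and 5 with anti-IgM, where 5.54% and 6.07% of all genes were higher. All 5 were higher in each of these without high Actb libraries. There 16.1% and 14.8% of all genes were higher in OP9 cells, and 9.91% and 13.1% in DL1 cells. Ccnb2, a mitotic cyclin, averaged 319 ± 62.2 in OP9 cells with LPS and 9.91 ± 7.69 without (log2 5.08). Its DL1 values were 194 ± 8.71 and 34.4 ± 10.9 (log2 2.51), beside a log2 change of Ccne1 of 0.17 that was not called. Changes against unstimulated OP9 cells, here and in the lists below, are against the group with the stroma markers. The part of these markers in such changes was not tested.

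The E2F targets of S phase entry, which copy DNA or supply its building blocks, were mostly higher after stimulation. Of 16 tested, 15 were called higher in OP9 cells with LPS (median log2 2.15) and 14 with anti-IgM (1.81), beside the same 11.4% and 8.35% of all genes. In DL1 cells 9 rose and 1 fell with LPS (1.04) and 13 rose with anti-IgM (1.51), beside 5.54% and 6.07% of all genes higher. The counts higher without high Actb libraries were 15 and 15 in OP9 cells and 13 and 15 in DL1 cells. The shares of all genes higher in that fit were 16.1%, 14.8%, 9.91% and 13.1%. With TPM as deposited the DL1 counts were 3 higher and 0 lower with LPS and 9 higher with anti-IgM. In that setting 6.21% and 9.28% of all genes were called in either direction. Rrm2, a subunit of ribonucleotide reductase, averaged 284 ± 61.1 with LPS and 18.2 ± 7.42 without in OP9 cells (log2 3.93). Cdc6, a licensing factor of replication, averaged 40.3 ± 1.04 with anti-IgM and 8.02 ± 2.13 without in DL1 cells (log2 2.22). From 44 to 68 h with LPS 7 of the 16 fell in OP9 cells (median -0.90) and 11 in DL1 cells (median -1.04, all genes 0.13), where 4.02% and 4.17% of all genes were lower. These counts were 11 and 13 without high Actb libraries, 0 and 1 with TPM as deposited, and 1 and 3 with the authors' deposited log2 values, with medians of the same sign. Of all genes 6.46% and 6.7% were lower without high Actb libraries. In either direction 3.51% and 3.86% were called with TPM as deposited, and 3.41% and 3.92% with the authors' deposited log2 values. Mcm2 of the replicative helicase went from 219 ± 26.8 to 61.8 ± 41.8 in DL1 cells (log2 -2.19), and -1.33 without high Actb libraries. In Blimp1+ cells against 44 h 6 of the 16 were lower (median -0.88, and 5.03% of all genes lower), or 12 in the fit without high Actb libraries (10.1% of all genes lower), among them Mcm5 (99.3 ± 9.09 against 239 ± 14.1, log2 -1.26). With the authors' deposited log2 values 3 were lower, where 7.47% of all genes were called in either direction.

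The CDK inhibitors, which hold these kinases back, were called in both directions. In unstimulated DL1 cells 1 of 7 was higher and 4 were lower than in OP9 cells (median log2 -1.70, all genes -0.19), where 8.84% and 17.6% of all genes were. These counts were the same without high Actb libraries, where 16.8% of all genes were higher and 25% lower. Cdkn1a and Cdkn2b were high in unstimulated OP9 cells, at 369 ± 251 and 86.2 ± 68, and low in unstimulated DL1 cells, at 14.1 ± 3.15 and 1.14 ± 0.0805 (log2 -4.30 and -4.97). The OP9 group is that with the stroma markers, whose part in these levels was not tested. In DL1 cells Cdkn1a rose with LPS (54.7 ± 10.6, log2 1.88, adjusted p = 0.00594, and 0.101 with TPM as deposited), and it was higher with LPS than with anti-IgM on both stromas at 44 h, at 29.7 ± 1.46 against 5.07 ± 1.5 in OP9 cells (log2 2.37, adjusted p = 0.000502). In Blimp1+ cells the Ink4 inhibitors Cdkn2a (7.51 ± 3.1 against 1.31 ± 0.442, log2 1.84) and Cdkn2b (16.6 ± 4.1 against 3.8 ± 1.31, log2 1.89) were higher than at 44 h, 2 of 7 inhibitors called with 0 lower, where 7.02% and 5.03% of all genes were. Without high Actb libraries 4 of 7 were higher, beside 14.4% of all genes. With TPM as deposited 1 of 7 was called, and with the authors' deposited log2 values 0, beside 8.94% and 7.47% of all genes in either direction.

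Among pocket proteins and E2F factors 4 of 13 were called higher and 0 lower in OP9 cells with LPS, and 2 and 0 with anti-IgM. Of all genes 11.4% and 8.35% were called higher, and 19.1% and 15.5% lower. Counted in either direction, the shares of the list are near those of all genes or below them (30.5% and 23.9%). E2f2, an activating E2F, averaged 17.6 ± 5.29 with LPS and 1.78 ± 1.63 without (log2 2.88), and it was higher in Blimp1+ cells (21.1 ± 1.89) than at 44 h (6.1 ± 1.39, log2 1.65). Of the activators, brakes and turnover factors of the kinases, Cdc25b, a phosphatase that activates CDKs, was higher in Blimp1+ cells (106 ± 5.73 against 28.9 ± 0.239, log2 1.84), and Skp2, which marks inhibitors for degradation, was lower (log2 -1.13). Fbxo4, a ubiquitin ligase subunit known for D cyclin turnover, was lower with LPS than with anti-IgM at 44 h, at 28.2 ± 8.06 against 131 ± 21.9 in OP9 cells (log2 -2.20) and 24.5 ± 4.38 against 80.7 ± 8.61 in DL1 cells (log2 -1.69). Of the transcriptional regulators of D cyclins, Rel, an NF-kB subunit, was lower with LPS on both stromas at 44 h (log2 -2.10 and -2.03). Myc averaged 75.9 ± 8.35 in Blimp1+ cells and 175 ± 9.78 at 44 h (log2 -1.20, adjusted p = 0.0294).

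Genes whose pattern over the 15 group means was most like that of each member were picked from 9123 candidates by Pearson's r of log2 means. These values are descriptions over groups that share high Actb libraries and depth. For the E cyclins and Cdk2 these included genes of replication and division: Pcna for Ccne1 (0.931, after Hnrnpf at 0.941), Hells for Ccne2 (0.925) and Rrm1 and Kif20a for Cdk2 (0.962 and 0.96). The others among their 3 most similar genes were Hspa14 for Ccne1 (0.928), Ran and Lsm2 for Ccne2 (0.923 and 0.922) and Traip for Cdk2 (0.953). For Ccnd2 the top gene was Sar1b (0.912), for Ccnd3 Mid1ip1 (0.927), for Cdk4 Fkbp1a (0.953), for Cdk6 Zcrb1 (0.945) and for Ccnd1 Fam102b (0.967). Over the 13 groups left without high Actb libraries, r was 0.981 for Ccne1 with Pcna and 0.857 for Ccnd2 with Sar1b. Between members, Ccne1 and Ccne2 had an r of 0.886 over 15 groups and 0.945 over 13, while Ccnd2 and Cdk6 had 0.844 over 15 and 0.419 over 13. With Myc, Cdk4 had an r of 0.43 over 15 groups and 0.427 over 13, and Cdk6 one of 0.62 and 0.823. Among the other members r with Myc ran from -0.322 (Ccnd1) to 0.715 (Ccne2) over 15 groups. Over 13 it ran from -0.685 to 0.778, in the same genes. Ccne1, whose window held no E-box, had 0.555 and 0.711. A part of Myc in these levels was not tested.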

How the data were processed

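PolyA RNA of sorted, viable B cells was made into libraries with a SMART-seq kit and Nextera XT, per the labels' protocols. The description of the series gives another SMART-seq kit than these protocols do. Which library ran on which of the instruments is not stated. A part of kit or instrument in the high Actb libraries was not tested. kallisto, limma and the builds GRCm38 and mm10 are named in the submitters' processing notes without versions, and the transcript set is not given in the sources used here. The authors deposited TPM per gene symbol, which summed to 92.1% to 96% of 1000000 in a library, and a log2 table. As its numbers show, the deposited log2 values come from estimated counts raised by 0.5 and divided by the library total in units of 1000000. No raw counts were used here.

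Libraries were put on 1 scale by dividing TPM by a size factor, the median ratio to the geometric mean (0.4416 to 1.4343, from 9462 symbols above 0 in all 45 libraries) and values were taken as log2 with a pseudocount of 1, which understates changes of low genes. Symbols at 1 TPM or more in at least 3 libraries (15614) entered a limma fit of 15 group means with trend and robust variance moderation (limma 3.58.1, R 4.3.3). Benjamini-Hochberg adjustment ran over all genes within each of 30 comparisons, and the threshold for a call was an adjusted p of 0.05. All adjusted p in the text come from limma. Replicates are not said to come from separate animals or cultures, so p-values measure the spread between libraries, which may be technical. The fit was tested on simulated data, in which a gene had the same spread in all libraries. That simulation held no libraries that stand apart, so it cannot show how high Actb libraries act on the fit. Alternatives were other scalings, the authors' log2 table, another pseudocount, other filters, the replicate number as a block, only the groups compared, each library left out, and, added after seeing the data, leaving out 10 libraries with high Actb. The 8 genes were named throughout; from each pathway list up to 2 called genes with the largest change in each direction were eligible, and for each of the 8 genes the 3 genes with the most similar group means. Members and lists were chosen with earlier results of these data known. Tables were handled with Python 3.11.15, pandas 2.3.3 and numpy 2.4.6, and plots drawn with matplotlib 3.10.9.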

Additional observations from a re-analysis of the deposited data

Results flagged for a closer look

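For 4 genes the effect of the Notch ligand at 20 h differed between LPS and anti-IgM by limma's test of the difference itself. The ligand's log2 effect with LPS minus that with anti-IgM was 4.51 for Ccnd2, 4.29 for Cdk6, 1.94 for Ccnd1 and 1.76 for Ccne2. The call of Ccnd2 was kept whichever library was left out and in every setting that could be fitted. That of Ccne2 was lost in 5 settings, that of Ccnd1 in 3 and that of Cdk6 in 2, and each of these was lost when any 1 of 8 to 10 of the 12 libraries was left out. All 3 libraries of DL1 cells with LPS and all 3 of OP9 cells with anti-IgM at 20 h had high Actb, and the other 6 libraries of this comparison did not, so that high Actb and this difference cannot be told apart.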

How the results depend on the processing

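Of 43 called effects of single genes none changed direction under any alternative. The call was kept in all 43 with a filter at 5 TPM and with the replicate number as a block, in 40 with a pseudocount of 0.1, 36 with no filter, 33 with quantile normalization, 26 with the authors' log2 table, 25 with TPM as deposited and 16 with only the groups compared, and 18 were kept without each library in turn. Without the high Actb libraries 20 of the 43 could be computed and 19 were kept. Only 5 of the 43 were kept both in every setting that could be fitted and without each library in turn. The number of called effects was 9 for the ligand, 11 for stimulus against none, 7 for LPS against anti-IgM, 10 for time, 2 for Blimp1+ cells and 4 for the ligand's effect with LPS minus with anti-IgM. It went to 5 for the ligand, 4 for stimulus against none and 4 for Blimp1+ cells with only the groups compared. With TPM as deposited it was 4 for LPS against anti-IgM, 6 for time and 2 for the difference of ligand effects. With the authors' log2 table it was 5 for time and 1 for Blimp1+ cells. With quantile normalization it was 1 for Blimp1+ cells and 2 for the difference of ligand effects, and with no filter 1 for each of these. Without the high Actb libraries it was 19 for stimulus against none and 4 for Blimp1+ cells, and in the comparisons that remained it went from 2 to 7 for the ligand, from 1 to 8 for LPS against anti-IgM, from 4 to 11 for time and from 0 to 1 for the difference of ligand effects. The cause was not tested. With each library left out in turn the counts were 6 to 12 for the ligand, 9 to 13 for stimulus against none, 6 to 10 for LPS against anti-IgM, 6 to 12 for time, 1 to 4 for Blimp1+ cells and 1 to 5 for the difference of ligand effects. The split of higher against lower calls was 5 to 2 for LPS against anti-IgM, but 2 to 2 with TPM as deposited, 3 to 3 with quantile normalization, 3 to 2 with the authors' log2 table and 9 to 0 with only the groups compared. For time it was 2 to 8, but 3 to 3, 3 to 4, 3 to 2 and 2 to 10 in that order. For the ligand it was 6 to 3, but 5 to 1 with TPM as deposited, 6 to 1 with the authors' log2 table, 2 to 3 with only the groups compared and 3 to 4 in the comparisons left without high Actb libraries, where all libraries gave 0 to 2. For the difference of ligand effects it was 4 to 0, but 3 to 3 with only the groups compared. The median of all genes moved by over 0.1 on the log2 scale in 16 of 30 comparisons with TPM as deposited (at most 0.40), in 18 with the authors' log2 table (at most 0.51) and in 7 with quantile normalization (at most 0.24). With the replicate number as a block the counts were 11, 11, 9, 10, 2 and 4 in the order above. Same-numbered libraries of different groups did not deviate together in most pairs, although replicate 3 of 4 groups at 68 h shared high Actb: the correlation was over 0.1 in 51 of 315 pairs (median 0.0116, range -0.416 to 0.774), and 20 of 45 libraries correlated best with their own number, so the numbers were not taken as a pairing. Cdk6 and Ccnd1 are limited by their low levels, and groups of 3 limit all of the comparisons.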
